A study of Mus musculus with 6 samples.

Results

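Complement components and regulators were compared between untreated and doxycycline-treated cultures of 4T1 breast carcinoma cells. The study used the drug to induce a LINE-1 (L1) retrotransposon. The 7 genes were taken by symbol from the deposited count table of 24421 genes: C3, Cfb, Cd55, Cd59a, Cr1l, Serping1 and Clu. The set was put together with the untreated and doxycycline values of these same 6 libraries in view, so the difference between the groups is described here and no p-value is given for any of the 7. Of them, 5 had counts in every library and passed the filter on low counts, while Cd55 and Cd59a had 0 counts in all 6.

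All 6 cultures were 4T1-tetL1(GLucAI) cells, a mouse line of the strain label BALB/cfC3H. Each carried the same cassette, in which a doxycycline-responsive bidirectional promoter drives firefly luciferase and a recoded mouse L1 with a Gaussia luciferase readout, and an EF1α promoter drives the Tet-On transactivator and blasticidin resistance. The line is a blasticidin-selected population with the cassette integrated by PiggyBac transposase. Cells were left untreated (3 libraries, tagged vehicle in the treatment field) or kept for 48 h with doxycycline at 400 ng/mL (3 libraries). No group without the cassette received the drug, so effects of doxycycline and of L1 cannot be told apart. Transcripts of the cassette were not analysed here, and every direction given rests on the labels.

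Library totals ran from 31653464 to 43631312 counts, and the ranges of the groups overlapped. The 45S ribosomal RNA precursor took between 8.83 and 12.1% of the counts. At this depth 3 counts, the limit that a count of 0 allows, correspond to 0.0683 to 0.0944 CPM, which are counts scaled to a common library size with TMM factors, and this limit covers counting error only. All 8 epithelial markers were detected, with a summed level of 1838 to 1925 CPM in untreated and 1789 to 2023 CPM in doxycycline libraries, and 1 of them, Krt19, was called lower (edgeR adjusted p 0.00782), where 2.16% of all genes were called lower. This call was lost without untreated replicate 2 or doxycycline replicate 3 (edgeR adjusted p 0.0713 and 0.0799). Krt19 was the only 1 of the 8 with a log2 fold change below 0, and 0 of the 8 were called higher. Epcam (0.13), Cldn4 (0.25) and Cldn7 (0.33) were higher without overlap between the groups, as were 10.1% of all genes. The 8 leukocyte markers summed to 0.751 to 0.961 and 0.503 to 1.13 CPM, with Adgre1 and Tyrobp at 0. Of 4 hepatocyte markers, Apoa1, Ttr and Fgb were at 0 and Alb had counts in 1 untreated library. The 4 endothelial markers summed to at most 0.81 CPM in any library. The 5 fibroblast markers summed to 35.5 to 38.2 CPM and to 27.5 to 28.8 CPM, nearly all of it Pdgfra, which fell (log2 fold change -0.40, edgeR quasi-likelihood test, adjusted p 0.000952), while Lum was at 0. The part of this shift in the values below was not tested.

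Complement is a cascade of plasma and cell-surface proteins that marks targets for engulfment and lysis. Its classical, lectin and alternative routes meet at C3, whose cleavage product C3b attaches to nearby surfaces. Factor B, the product of Cfb, joins C3b to form the alternative pathway convertase, which cleaves more C3. Host cells hold this amplification in check with membrane proteins: Cd55 speeds the decay of convertases, Crry (the product of Cr1l in rodents) also serves as a cofactor for C3b cleavage, and Cd59a blocks the final pore. In the fluid phase, C1 inhibitor (Serping1) inactivates the C1r, C1s and MASP proteases, and clusterin (Clu) binds terminal complexes besides acting as an extracellular chaperone. Most circulating complement is made in the liver, and epithelial and tumor cells can also produce components, with C3 and Cfb known as inflammation-inducible genes.

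Promoter sequences were shown for the most abundant component and for the membrane regulators, one with counts and the others at 0, so that their start sites can be compared. RefSeq windows (GRCm38.p6) were found for 4 of the 7 genes, and the 250 bases before the start used in each window are given 5′ to 3′ on the strand of the gene. RefSeq annotates several transcripts, and the starts used for Cd55 and Cd59a lie inside the span given for each gene, so that the Cd55 stretch lies wholly within that span and the Cd59a stretch in part. Capitals mark matches to a motif searched for on both strands.

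C3 (chr17:57228137-57228386, minus strand): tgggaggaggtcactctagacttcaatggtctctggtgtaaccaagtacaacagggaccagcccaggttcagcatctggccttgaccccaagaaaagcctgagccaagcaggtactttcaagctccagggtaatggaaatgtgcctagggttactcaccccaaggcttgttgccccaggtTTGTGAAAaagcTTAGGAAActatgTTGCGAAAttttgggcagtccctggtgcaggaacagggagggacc
Cr1l (chr1:195131571-195131820, minus strand): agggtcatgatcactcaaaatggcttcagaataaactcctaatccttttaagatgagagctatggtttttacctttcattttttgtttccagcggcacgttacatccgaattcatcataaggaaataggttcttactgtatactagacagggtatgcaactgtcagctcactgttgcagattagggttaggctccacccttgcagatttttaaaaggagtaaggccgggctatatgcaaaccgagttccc
Cd55 (chr1:130462745-130462994, minus strand): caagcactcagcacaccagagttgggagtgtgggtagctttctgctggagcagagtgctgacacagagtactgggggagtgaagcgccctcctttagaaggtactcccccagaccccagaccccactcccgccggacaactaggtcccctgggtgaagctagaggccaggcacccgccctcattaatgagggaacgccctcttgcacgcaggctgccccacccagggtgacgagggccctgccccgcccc
Cd59a (chr2:104095551-104095800, plus strand): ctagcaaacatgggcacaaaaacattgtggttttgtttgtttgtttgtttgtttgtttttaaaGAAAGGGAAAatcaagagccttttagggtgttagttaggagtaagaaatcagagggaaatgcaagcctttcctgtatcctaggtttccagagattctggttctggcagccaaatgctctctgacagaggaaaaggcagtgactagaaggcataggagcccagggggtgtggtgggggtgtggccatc

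The motifs were the C/EBP pattern TTNNGNAA, the STAT pattern TTCNNNGAA, and the interferon response element and the kB site by name, searched over each window of 250 bases before to 50 after the start. The C3 window held 3 C/EBP matches, TTGTGAAA, TTAGGAAA and TTGCGAAA, which began 70, 58 and 45 bases before the start and did not overlap. A C/EBP match was present in 40.7% of all 32851 windows. The Cd59a window held 1 interferon response match, found in 3.44% of all windows, and the Cr1l and Cd55 windows held 0 matches. STAT matches were present in 8.3% and kB sites in 4.51% of all windows. The upstream stretch of Cd55 had a GC content of 64% with 8 CpG dinucleotides, against 41.6% and 5 in Cr1l, 44.8% and 0 in Cd59a and 52% and 1 in C3. Over all windows the medians were 52.4% and 6. These matches are descriptions of the letters and not of bound sites.

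Levels of different genes were compared per kilobase of exon, as CPM divided by the length of the merged exons. In untreated cells C3 stood highest of the 7 at 53.4 ± 1.98 CPM per kilobase (SD, n = 3), above 91.4% of the 12605 tested genes with an annotated length. Clu followed at 36.6 ± 0.80 and Cr1l at 8.78 ± 0.70 CPM per kilobase, above 86.3 and 52.4% of those genes. Cfb had 1.44 ± 0.20 and Serping1 0.607 ± 0.093 CPM per kilobase, above 20.7 and 13.4%. The ranges of neighbours in this order did not overlap among the 5 genes with counts, and the order was the same when the longest transcript set the length. Message for C3 and clusterin was thus abundant in these cells, and message for factor B and C1 inhibitor was scarce.

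**Figure D1:**
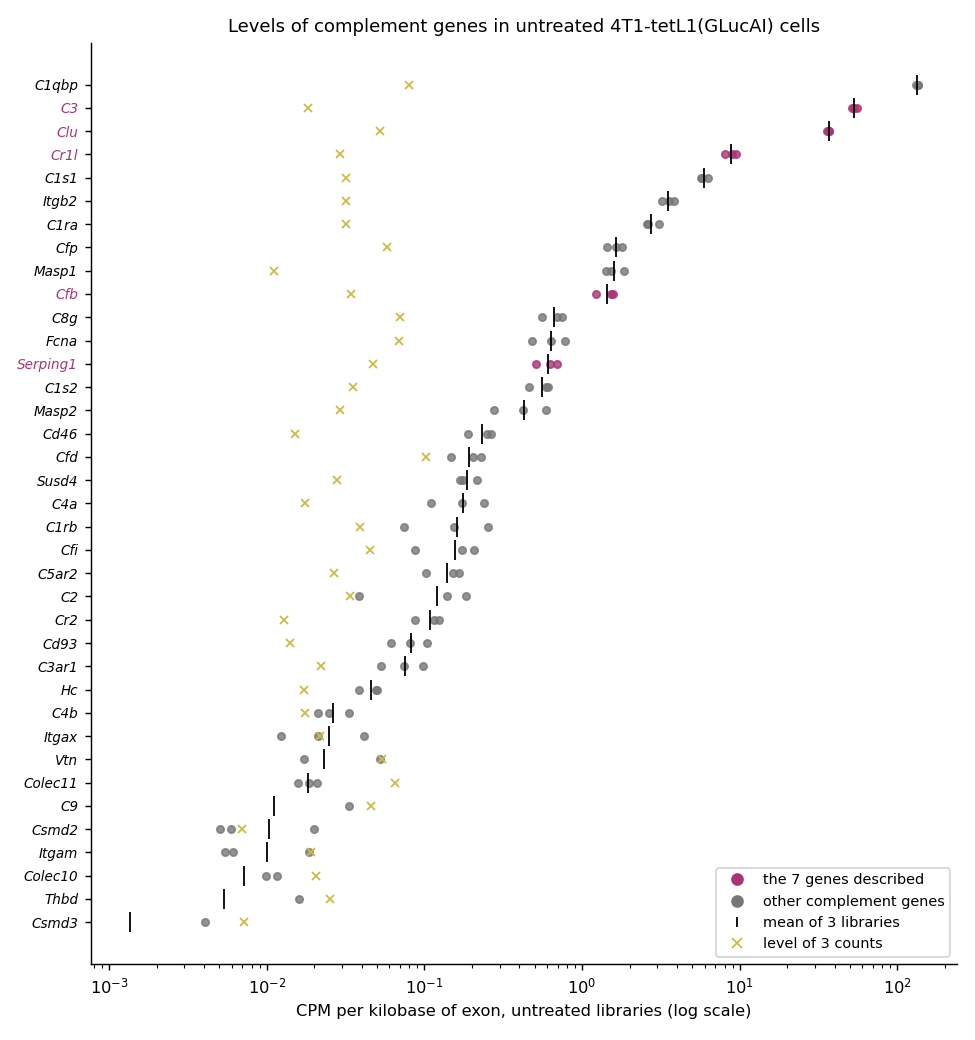
Levels of complement genes in the 3 untreated libraries, as CPM per kilobase of exon on a log axis. Points are libraries above 0, bars are means and crosses mark the highest level of 3 counts over the libraries. C1qbp and C3 stand at the right, at 133 and 53.4 CPM per kilobase, and genes with no count in untreated libraries, Cd55 and Cd59a among them, are among those not drawn.

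Cr1l was the one membrane regulator of the 3 with counts. This gene (chromosome 1, 195098711 to 195131570, protein-coding) had 28.9, 30.5 and 26 CPM in untreated replicates 1 to 3 and 28.7, 25.3 and 29.2 CPM in the doxycycline libraries. The ranges of the groups overlapped, with a log2 fold change of -0.04 (SE 0.08). Its sign changed without untreated replicate 2 (0.01) and without doxycycline replicate 2 (0.02). Cd46, the membrane cofactor protein, and Cr2, which encodes complement receptors, flank Cr1l on either side, and they had 36 to 68 and 13 to 58 counts against 911 to 1267 for Cr1l. The Cd46 and Cr1l annotations overlap at their ends.

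Cd55 (chromosome 1, 130429798 to 130465009, protein-coding) and its near copy Cd55b had 0 counts in each of the 6 libraries. The same held for Cd59a (chromosome 2, 104095753 to 104115410, protein-coding) and its near copy Cd59b. With 3 counts per library as the limit, the Cr1l level per kilobase was at least 237-fold higher than that of Cd55 and at least 169-fold higher than that of Cd59a in every library. Reads shared between near copies can be lost in counting. In the GENCODE transcripts, 84.5% of the 50-base stretches of Cd55 and 96% of those of Cd59a occurred in no other gene. The part of the annotation and read counting behind the table in these zeros was not tested further. The upstream stretches of Cd55 and Cd55b were 61.9% identical in a global alignment, and those of Cd59a and Cd59b 46.6%. Thbd, another membrane protein with a regulatory role, had at most 2 counts, and Susd4 had 12 to 45.

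C3 was the member with the highest count and was lower in every doxycycline library. It lies on chromosome 17 from 57203967 to 57228136 and is protein-coding. Its level was 273, 265 and 285 CPM in untreated replicates 1 to 3 and 183, 206 and 176 CPM in doxycycline replicates 1 to 3. The highest doxycycline value lay below the lowest untreated one. The mean went from 274 ± 10.2 to 188 ± 15.4 CPM (SD over 3 libraries). The fitted ratio was 0.687, which is -0.54 on the log2 scale (SE 0.05). Leaving out any single library gave values between -0.61 and -0.49.

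Cfb, the alternative pathway protease, went the other way. This gene (chromosome 17, 34856374 to 34862514, protein-coding) had 3.35, 4.35 and 4.19 CPM in untreated libraries and 5.22, 6.71 and 5.02 CPM in doxycycline libraries. These ranges did not overlap either, although untreated replicate 2 and doxycycline replicate 3 were close. The log2 fold change was 0.52 (SE 0.16), from counts of 145 to 274 per library. Doxycycline replicate 2 was the highest library, and without it the value was 0.37. In the same library Irf7, a factor of the interferon response, was also at its highest, with 22.7 CPM against 11.9 to 16.2 CPM in the other 5. The part of this library in the Cfb value was not tested beyond leaving it out.

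A GENCODE read-through model, Gm20547, which covers C2 and Cfb, contains most of the Cfb transcript, and only 18.6% of its 50-base stretches were free of other genes. The count table has no row for that model, and the adjacent C2 had 4 to 25 counts. As C3 was lower and Cfb higher, the ratio of C3 to Cfb per kilobase was 43.7, 32.6 and 36.4 in untreated libraries and 18.8, 16.4 and 18.8 in doxycycline libraries. C3 remained the more abundant message in all 6.

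**Figure D2:**
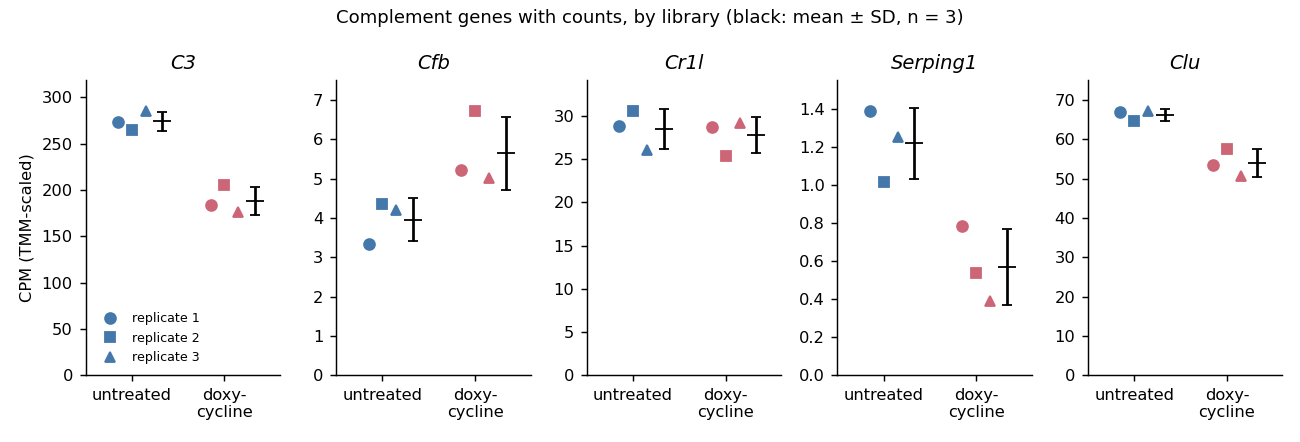
CPM of the 5 genes with counts in each library, with the 3 replicates as separate symbols and the mean ± SD (n = 3) in black; each axis starts at 0. C3, Serping1 and Clu are lower and Cfb is higher in all 3 doxycycline libraries, while the groups overlap for Cr1l.

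Both fluid-phase inhibitors were lower in doxycycline libraries. Clu (chromosome 14, 65968483 to 65981548, protein-coding) had 67, 64.5 and 67.1 CPM in untreated libraries and 53.5, 57.6 and 50.7 CPM in doxycycline libraries. The groups did not overlap, with a log2 fold change of -0.29 (SE 0.06). Serping1 (chromosome 2, 84765360 to 84775444, protein-coding) had 1.39, 1.02 and 1.26 CPM against 0.786, 0.539 and 0.392 CPM, again without overlap. Its log2 fold change of -1.12 (SE 0.34) was larger in size and far less precise, since it rests on 34 to 61 and on 15 to 25 counts per library. Leaving out single libraries moved it between -1.39 and -0.90.

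Taking the 5 measured genes, 3 were lower and 1 was higher without overlap between the groups. Over all 13084 genes tested, 11.1% were lower and 10.1% higher without overlap, 21.3% in all. Nothing is read from the counts of the 5, because the set was chosen on this contrast. The median log2 fold change of the 5 was -0.29, and that of all genes tested was 0.002.

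The other genes of the complement system showed which parts of the cascade these cells expressed. Of 55 such genes 54 were in the table, 19 had 0 counts throughout and 20 were tested. None passed the adjusted threshold of 0.05 in edgeR's quasi-likelihood test (0 higher and 0 lower), where 0.925% of all genes were called higher, 2.16% lower and 3.09% either way. At an unadjusted edgeR p under 0.05 there were 1 higher (Cfp) and 2 lower (C1ra and C1s1). The share of all genes at that unadjusted threshold is not given here, so nothing is read from these counts. The DESeq2 Wald test called 1 of the list, C1s1, lower. It gave an adjusted p only for C1ra, C1s1, Masp1, Cfp, Itgb2 and C1qbp, and none for the rest of the 20. Over all 13084 genes fitted it called 185 higher and 358 lower. The number of these genes with an adjusted p is not given here, so nothing is read from the DESeq2 count. This list was also chosen with earlier results of these data known. The median log2 fold change of the 20 was -0.04.

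In the classical pathway, the recognition chains C1qa, C1qb and C1qc were at 0 in all libraries, whereas the proteases that bind them were present. C1s1, the protease C1s, had 17, 18.9 and 17.1 CPM in untreated libraries and 16, 13.4 and 11 CPM in doxycycline libraries. All doxycycline values lay below the untreated ones, and the fitted log2 difference was -0.39 (SE 0.11 and edgeR adjusted p of 0.0572). This value lies next to the threshold, and it crossed it in 7 of 15 alternatives, the lowest adjusted p being 0.00305 without a filter and the highest 0.274 without doxycycline replicate 3. C1ra, the protease C1r, had 8.2 ± 0.78 and 6.65 ± 0.83 CPM (log2 fold change -0.31 with SE 0.13 and edgeR adjusted p of 0.226). C1s2 had 1.47 ± 0.21 and 0.97 ± 0.22 CPM (log2 fold change -0.59 with SE 0.29 and edgeR adjusted p of 0.317). Its groups did not overlap, with 1.23 CPM as the lowest untreated and 1.22 CPM as the highest doxycycline value. C4a and C2 had at most 52 and 25 counts in a library, and C4b at most 7.

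In the lectin pathway Masp1, a protease that acts with collectins and ficolins, had 13.6 ± 1.86 and 13.4 ± 1.67 CPM (log2 fold change -0.02 with SE 0.11 and edgeR adjusted p of 0.948). Masp2 had 1.39 ± 0.52 and 0.98 ± 0.22 CPM (log2 fold change -0.47 with SE 0.32 and edgeR adjusted p of 0.507). The collectin and ficolin genes Mbl1, Mbl2, Fcnb and Colec12 were at 0, and Fcna had 9 to 40 counts. Cfp, or properdin, which stabilizes the alternative convertase, had 2.37, 2.7 and 2.94 CPM in untreated libraries and 2.92, 3.01 and 4.91 CPM in doxycycline libraries. Its log2 fold change of 0.45 (SE 0.21) did not pass (edgeR adjusted p 0.285), and the groups overlapped. Without doxycycline replicate 3, the highest library, it was 0.16 (edgeR adjusted p 0.797). Cfd, which activates factor B, had only 6 to 12 counts.

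Of the terminal genes that build the lytic pore, C6, C8a and C8b were at 0, and C7 and C9 had at most 3 counts. C5 (Hc in the table) had 7 to 22 counts and C8g 25 to 44. Among soluble regulators, C4bp and Vtn had at most 4 counts and Cfi 7 to 16, and 0 of the 8 in the table were tested. Of the receptors, C5ar1 and Vsig4 were at 0 and C3ar1 had 8 to 19 counts. Itgb2, the beta chain shared by leukocyte integrins, had 10.5 ± 0.87 and 10.1 ± 1.04 CPM, although the alpha chains Itgam and Itgax that make complement receptors had at most 6 counts. C1qbp, known mostly as a mitochondrial protein, had 157 ± 2.65 and 160 ± 5.32 CPM (log2 fold change 0.03 and edgeR adjusted p of 0.832).

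**Figure D3:**
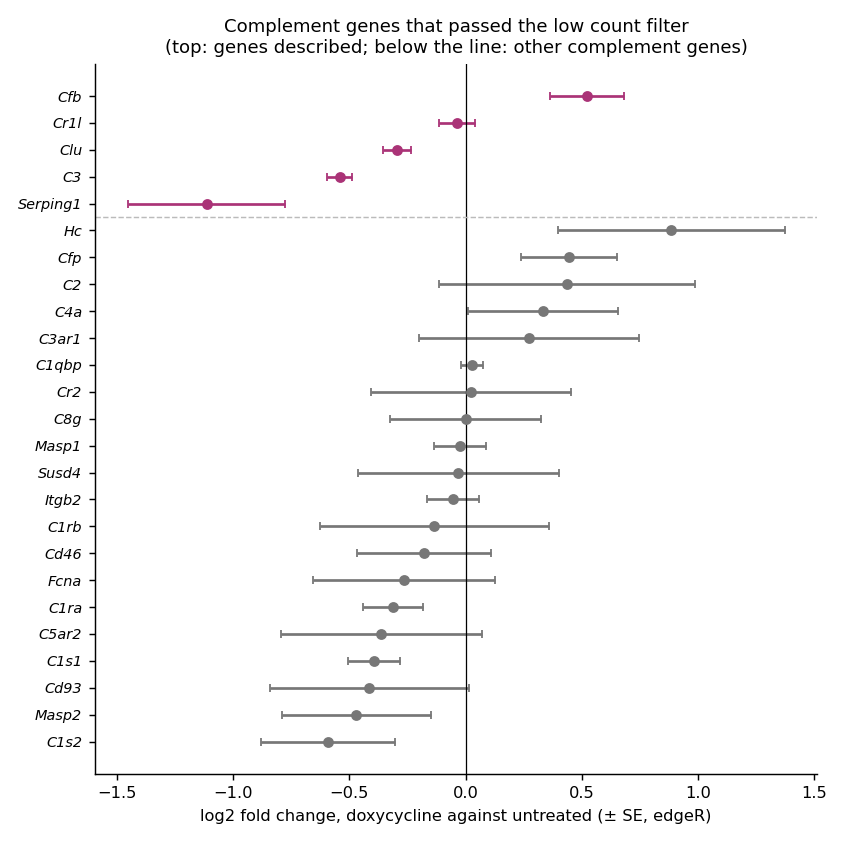
Log2 fold change, doxycycline against untreated, with SE from the edgeR fit, for the 5 genes described (above the dashed line) and the 20 other complement genes that were tested. C1s1 lies at -0.39 and C1ra at -0.31, and no gene below the line passed the adjusted threshold.

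C3 and Cfb are often grouped with acute-phase genes, and a list of 15 such genes was compared. The list was chosen with earlier results of these data known. Its calls and p-values therefore describe the contrast and are not independent support. Of the 6 that were tested, 4 were called lower and 0 higher, where 2.16% of all genes were called lower, and the median log2 fold change was -0.73. Lcn2, an iron-siderophore binding protein, fell from 94.4 ± 5.5 to 52.5 ± 3.81 CPM (log2 fold change -0.85 with SE 0.06 and edgeR adjusted p of 3.27e-08). Slpi, a secreted protease inhibitor, fell from 104 ± 5.45 to 70.4 ± 5.62 CPM (log2 fold change -0.56 and edgeR adjusted p of 4.75e-06). Cp, the copper carrier ceruloplasmin, fell from 239 ± 3.95 to 176 ± 2.06 CPM (log2 fold change -0.44 and edgeR adjusted p of 2.16e-06). Ltf, lactoferrin, fell as well, at under 3 CPM (log2 fold change -1.45 and edgeR adjusted p of 0.00309). Relative to its untreated mean, C3 stood at 66.9, 75 and 64.2% in doxycycline replicates 1 to 3, and Slpi at 64.8, 74.2 and 64.8%. The other called genes were less like C3. Lcn2 stood at 57.96, 58.05 and 51.02%, Cp at 73.5, 72.9 and 74.6% and Ltf at 35.6, 37.8 and 36.3%.

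Transcription factors and inhibitors known to act on complement promoters were compared last. This list was also chosen with earlier results known, so its calls and p-values are a description as well. Of 16 tested, 2 were called lower and 0 higher, where 2.16% of all genes were called lower and 0.925% higher, and the median log2 fold change was 0.05. Nfkbia, an inhibitor and target of NF-κB, fell from 60.5 ± 1.26 to 48 ± 3.99 CPM (log2 fold change -0.33 and edgeR adjusted p of 0.00364). Cebpb, a C/EBP factor of the acute-phase response, fell from 55.7 ± 2.79 to 47.5 ± 2.36 CPM (log2 fold change -0.23 and edgeR adjusted p of 0.04). The Cebpb call was lost in 4 fits, those without untreated replicate 1, 2 or 3 or doxycycline replicate 3 (edgeR adjusted p 0.231, 0.139, 0.0724 and 0.198). Irf7 (0.34) did not pass the threshold (edgeR adjusted p 0.403).

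**Figure D4:**
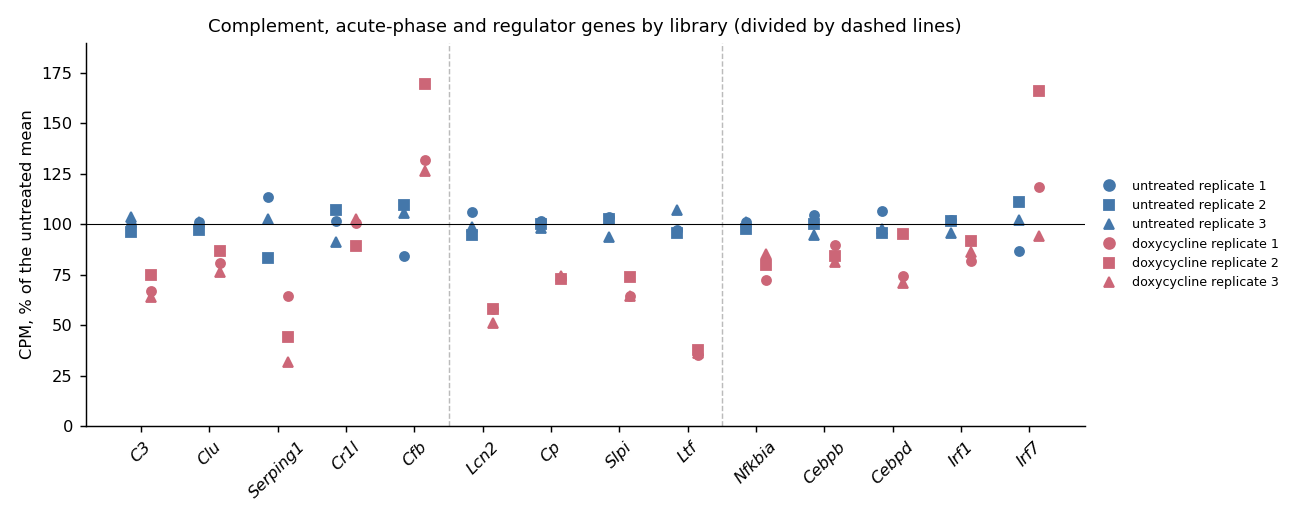
CPM of complement genes, acute-phase genes and regulators (3 blocks, left to right) in each library, as percent of the mean of the 3 untreated libraries. In the doxycycline libraries C3 lies at 64.2 to 75%, Slpi at 64.8 to 74.2% and Cp at 72.9 to 74.6%. Lcn2 lies at 51.02 to 58.05% and Ltf at 35.6 to 37.8%. Cfb and Irf7 are highest in doxycycline replicate 2, at 169 and 166%.

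**Figure D5:**
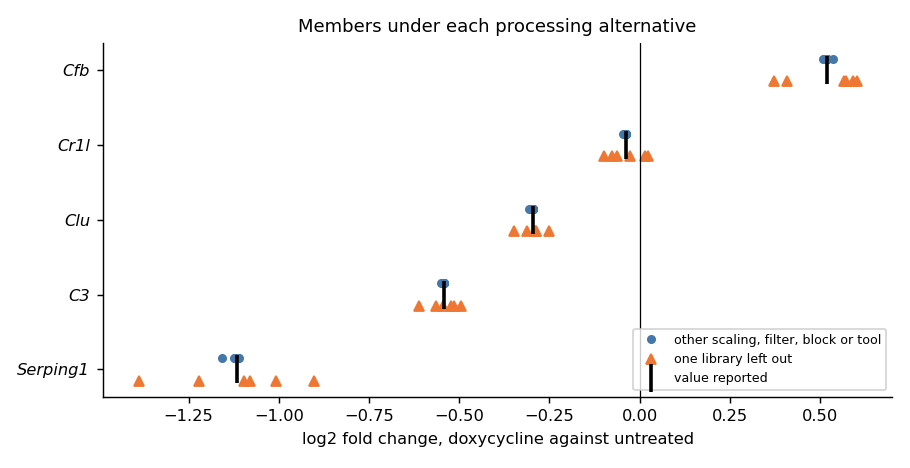
Log2 fold change of the 5 genes with counts under 15 alternatives: other scaling, filter, block or tool (circles), 1 library left out (triangles) and the value reported (bar). Cfb stays above 0 and C3, Clu and Serping1 below 0 throughout, while Cr1l lies on both sides.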

How the data were processed

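The authors sequenced total RNA after ribosomal RNA depletion with a strand-preserving kit. Per the labels, they used bcl2fastq 2.20, STAR and featureCounts (Subread 1.6.2) on GRCm38, with an annotation of the same source. The deposited values are raw read counts per gene; strand setting and multi-mapping are not given in the sources used here. The columns were matched to samples by library code, with 0 unmatched. The 7 genes and all lists were chosen with earlier results of these data known.

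Counts were fitted with edgeR 4.0.16 in R 4.3.3 (quasi-likelihood test, robust, TMM scaling, filterByExpr, 13084 genes, Benjamini-Hochberg over all, threshold 0.05). SE values were derived from the fitted log2 change and its F statistic (size over root F). The study used DESeq2, here an alternative (1.42.0) beside limma 3.58.1 voom. Named were all 7 genes, called list members, near copies, and within each role mainly genes with the highest levels, beside others with few or no counts. Lengths came from GENCODE M21, coordinates and promoters from RefSeq. Replicates are labelled only by number, so p-values measure the spread between libraries. Replicate pairs differed beyond sampling noise (chi-square per degree of freedom 6.14 to 22.1). The fit was tested on simulated data with known changes, where false calls ran above the nominal share. Alternatives were other scalings, filters, the replicate block, leaving out each library, other tools and leaving out Rn45s. Some genes of the lists are not reported here.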

Additional observations from a re-analysis of the deposited data

How the results depend on the processing

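The log2 fold changes of C3, Clu and Serping1 stayed below 0 and that of Cfb above 0 in all 15 alternatives each. They moved by less than 1 SD between replicates in each, and so did Cr1l, whose sign changed in 2. The median of the 5 measured genes ran from -0.35 to -0.25, and the order by level was the same with the longest transcript (0 pairs out of order). The number of other complement genes called lower went from 0 to 1 with library size scaling, without a filter, with the DESeq2 Wald test and with limma voom, the gene being C1s1. Among the fits that left out 1 library it ran from 0 to 1, with 1 without doxycycline replicate 1 or 2. It was also 1 (edgeR adjusted p 0.0239) with the replicate block. Deviations of same-numbered libraries from their group means had correlations near 0 (-0.05, 0.004 and 0.02). These run over all tested genes, noisy low counts among them, so they cannot exclude a pairing by number. The block gave 118 genes higher and 300 lower over the whole table, against 121 and 283. Without a filter these were 210 and 439, and with DESeq2 185 and 358. Leaving out 1 library gave from 44 to 269 higher and from 116 to 487 lower. Causes were not tested. Depth limits Serping1 most, and the complement genes below the low count filter were not tested.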

Other observations

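For each measured gene the 3 tested genes of at least 10 CPM with the most similar log2 CPM over the 6 libraries were listed, as a description. C3 was most like Dcaf7 (Pearson r 0.995), the transcription factor gene Foxo3 (0.994) and the glycolytic enzyme gene Pgk1 (0.993), of 8781 genes compared. Clu was most like the glycolytic enzyme gene Tpi1 (0.998), Zfp395 (0.996) and Dcaf7 (0.993). Serping1 was most like Cox6c (0.997), a subunit of cytochrome c oxidase, Rnf214 (0.995) and Tnfsf9 (0.993). Cfb was most like R3hdm2 (0.992), Klf16 (0.989) and Leng8 (0.985), and Cr1l like Exoc6b (0.983), Wrnip1 (0.975) and Nt5c3 (0.971). The size of change differed within these groups, with log2 fold changes of -0.06 for Dcaf7 and -0.46 for Foxo3 beside -0.54 for C3. All points share the same 6 libraries, and with so few points many genes reach a high r.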
